A study of Homo sapiens with 8 samples.

Results

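The 51 genes described here encode chemokines, interleukins, members of the tumour necrosis factor (TNF) superfamily and their receptors, and the JAK-STAT, NF-kB and interferon genes that act downstream. They were chosen by symbol alone (names beginning CXCL, CXCR, CCL, CCR, IL, TNF, JAK, STAT, SOCS, PIAS, IFN, IRF, IFI, ISG, OAS, MX, CSF, LIF, OSM, NFKB or TRAF, without IL6R and IL6ST) from the 3666 genes in the authors' deposited table. MIA PaCa-2 is an established human pancreatic ductal adenocarcinoma line. Wild-type, untreated cells, grown in RPMI with 10% serum and 44 mM bicarbonate, were briefly exposed to lactate, washed and sorted by flow cytometry into a fraction with low (PHLac-low) and a fraction with high (PHLac-high) permeability to lactic acid, which served as a measure of metabolic rate. RNA of both fractions was sequenced in each of 4 repeats, giving 4 libraries per fraction, and the fractions of a repeat are paired. Both fractions came from 1 line and had the same lactate exposure, and the labels do not say whether the repeats were separate cultures, so p-values measure only the spread between these samples.

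Cytokines and chemokines are secreted or surface ligands that bind receptors on the same or on other cells. Receptors of the interleukin and interferon families signal through JAK kinases and STAT transcription factors. TNF, interleukin-1 and interleukin-17 receptors instead signal through adaptors such as the TRAF proteins to NF-kB. Some IkB proteins, such as IkB alpha, hold NF-kB inactive. Many inhibitors of these routes (SOCS proteins, IkB alpha, TNFAIP3) are themselves induced by them, and carcinoma cells of the pancreas are known to secrete chemokines and LIF.

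Short stretches of promoter are shown first because motifs of these routes lie within them. RefSeq (GRCh38.p14) gave a window from 250 bases before to 50 bases after the start for 41 of the 51 genes. It was searched on both strands for the interferon-stimulated response element core (TTTC, any 2 bases, TTTC), the STAT motif TTCNNNGAA and the NF-kB consensus. The NF-kB consensus was found in 12 of the 41 windows (29.3%), against 7.51% of the listed genes with a promoter and 5.72% of all 27305 promoters. The interferon element was found in 4 (9.76%, against 2.75% of the listed genes with a promoter and 3.65% of all promoters). The STAT motif was found in 3 (7.32%, against 5.57% and 7.88%). Capitals mark the matched letters in the following stretches, written in the direction of transcription. In CXCL5 the STAT and NF-kB matches overlap and run together.
CXCL1, chr4:73869289-73869349, plus strand: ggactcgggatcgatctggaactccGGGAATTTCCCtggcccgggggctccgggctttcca
CXCL3, chr4:74038733-74038793, minus strand: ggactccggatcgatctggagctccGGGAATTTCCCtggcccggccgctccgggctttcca
CXCL5, chr4:73998733-73998797, minus strand: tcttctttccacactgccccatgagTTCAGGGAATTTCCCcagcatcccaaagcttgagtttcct
NFKB1, chr4:102501285-102501344, plus strand: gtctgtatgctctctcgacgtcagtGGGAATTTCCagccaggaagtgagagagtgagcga
NFKBIA, chr14:35404796-35404855, minus strand: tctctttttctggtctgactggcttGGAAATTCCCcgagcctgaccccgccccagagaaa
NFKBIZ, chr3:101827742-101827801, plus strand: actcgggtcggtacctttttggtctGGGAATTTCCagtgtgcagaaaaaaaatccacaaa
TNFAIP3, chr6:137867167-137867238, plus strand: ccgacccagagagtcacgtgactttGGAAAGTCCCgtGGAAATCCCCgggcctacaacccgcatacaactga
IRF1, chr5:132490789-132490922, minus strand: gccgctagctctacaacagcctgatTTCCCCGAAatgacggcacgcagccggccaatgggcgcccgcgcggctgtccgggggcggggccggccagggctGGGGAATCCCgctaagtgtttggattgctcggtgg
ISG15, chr1:1013359-1013424, plus strand: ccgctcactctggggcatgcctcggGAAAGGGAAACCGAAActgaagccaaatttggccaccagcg
TNFSF10, chr3:172523583-172523642, minus strand: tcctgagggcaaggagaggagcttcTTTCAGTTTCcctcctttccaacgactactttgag
SOCS1, chr16:11256283-11256342, minus strand: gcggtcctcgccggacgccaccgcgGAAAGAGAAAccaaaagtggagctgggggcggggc

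The CXCL1, CXCL3 and CXCL5 promoters hold the same NF-kB match, GGGAATTTCC, which also occurs in those of TNFRSF9, NFKB1 and NFKBIZ. Of the 12 genes with the NF-kB consensus 8 were higher (66.7%, against 58.7% of all listed genes) and 4 lower in PHLac-high. Of the 4 with the interferon element 2 were higher (TNFSF9 and SOCS1) and 2 lower (TNFSF10 and ISG15). A match describes these letters only, and binding of a factor was not measured.

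Every gene of the table had been listed by the authors for a difference between these libraries, so a call here describes the genes and does not show anew that they differ. Values are the authors' normalised counts, and changes are log2(PHLac-high + 1) minus log2(PHLac-low + 1), estimated by limma with the repeat as a block. At a Benjamini-Hochberg adjusted p of 0.05 over the table, all 51 genes passed, 29 of them higher (56.9%) and 22 lower (43.1%). Of all listed genes 99.9% passed, 58.7% higher and 41.2% lower, so the split of the 51 was close to that of the table. Their adjusted p from limma ranged from 8.09e-05 to 0.0207. The change had the same sign in all 4 repeats for 48 of the 51 genes, as for 96.1% of listed genes. Values of the 2 fractions did not overlap for 11 of the 51 genes, a smaller share than the 36.7% of listed genes. The change was at least 0.5 in either direction for 26 of the 51 (38.9% of listed genes) and at least 1 for 5, all higher. Of the 3666 listed genes 408 changed by at least 1 in either direction (11.1%), 217 of them higher. Without the replicate block 13 of the 51 passed (25.5%, against 31% of listed genes): IL16, CXCL3, TNFSF9, TNFRSF10D, TNFRSF12A, IL1R1, CXCR4, SOCS1, SOCS6 and IFITM10 higher, and STAT2, IRF5 and IL18BP lower. The range of the 4 repeat means exceeded the change between fractions for 37 genes (72.5%, against 58.7% of listed genes).

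The split also depended on scaling. After scaling each library by its upper quartile, the median change of all listed genes moved from 0.25 to 0.02. Of the 51, 34 then passed (66.7%, against 64.4% of listed genes), 12 as higher and 22 as lower. The 12 were IL16, CXCL3, CXCL5, TNFSF9, TNFRSF9, TNFRSF12A, TNFRSF10D, IL1R1, CXCR4, CSF1R, SOCS1 and IFITM10. Transcripts of the higher members had a median GC content of 49.5% and those of the lower members 56.5%, against 46.6% and 56.8% for all listed genes. After correction for GC content and length 34 of the 51 passed (66.7%, against 62.7% of the listed genes with a known GC content). The 17 that did not were TNFSF4, CXCL1, TNFRSF10A, TNFRSF10B, IL18R1, IL17RC, IL17RE, JAK2, JAK3, NFKB1, NFKB2, NFKBID, NFKBIZ, SOCS4, SOCS6, SOCS7 and IFIT2.

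**Figure D1:**
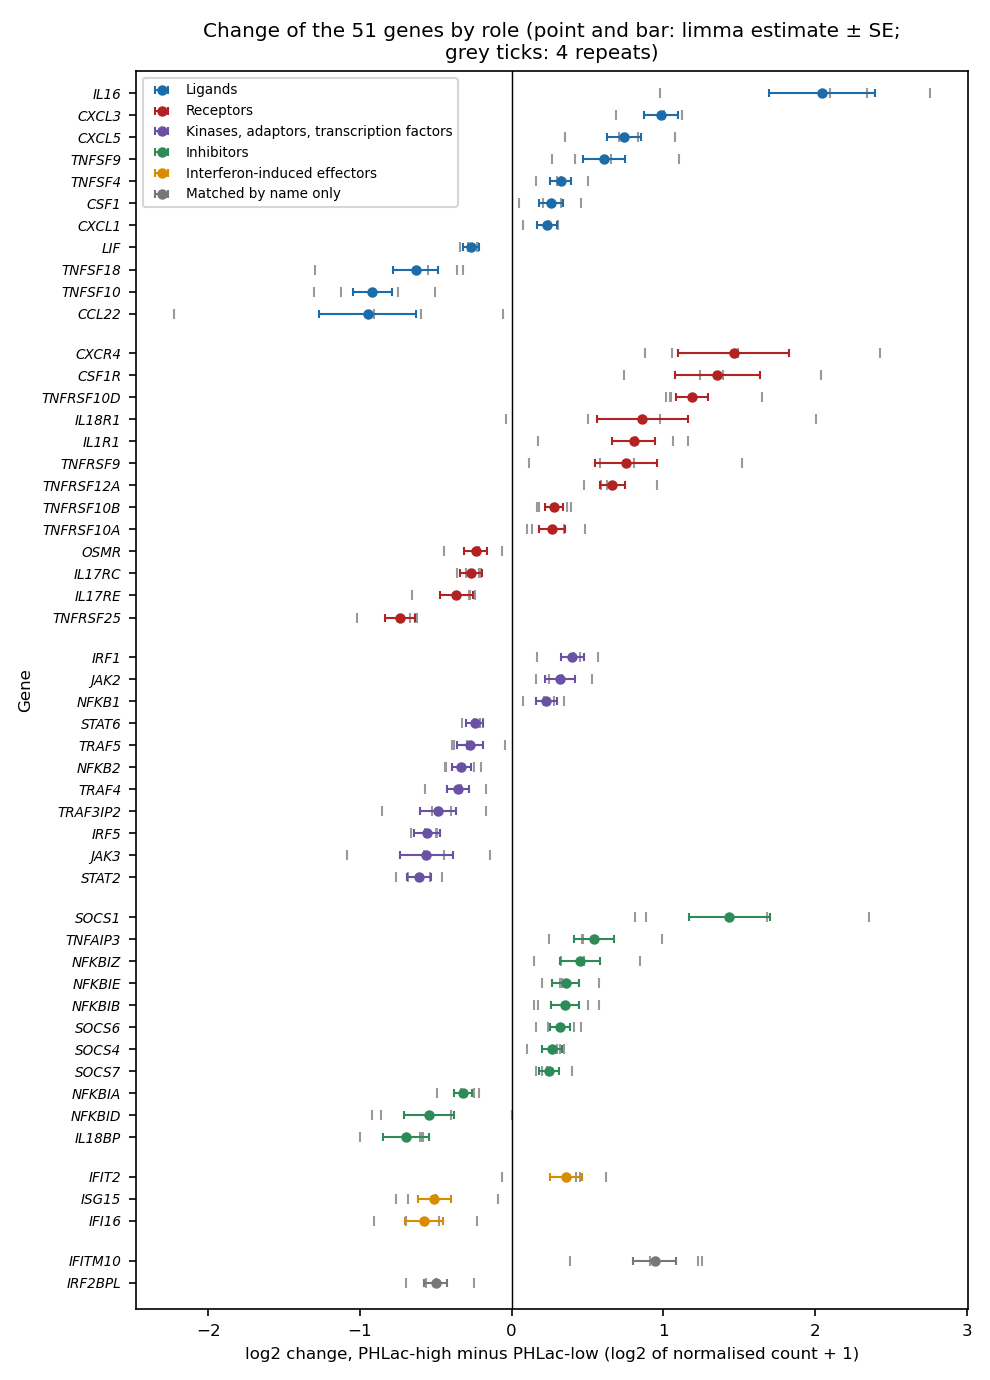
Log2 change between PHLac-high and PHLac-low (x axis) for each of the 51 genes (y axis), grouped and coloured by role; points and bars are limma estimates ± SE and grey ticks the 4 repeats. Right of 0 lie 9 of 13 receptors (69.2%, against 58.7% of listed genes). Left of 0 lie 8 of 11 signalling genes (72.7%, against 41.2% of listed genes). IL16 has the largest change at 2.05.

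With 1 step of the scaled signal taken as 1 read, which was less certain in 4 of the 8 libraries with few low values, reads in the listed genes ranged from 8979276 to 23176205 per library, which covers part of each library only. Repeat 4 stood apart: on the second principal component of the 51 genes (40.4% of their variance) its PHLac-high library scored 5.14 and its PHLac-low library 2.58, while the other 6 libraries lay between -2.30 and 0.366. Without repeat 4, all 51 genes still passed in limma, as did 98.9% of listed genes. Of 8 markers of pancreatic carcinoma cells only KRT19 was in the table, at 14790 to 24031 normalised counts per library. Of 10 leukocyte markers 4 were listed (PTPRC, CD14, CD68 and CSF1R), with summed levels of 1527 to 3431 in PHLac-low and 1601 to 5398 in PHLac-high. PTPRC, the pan-leukocyte phosphatase, changed by -1.36 ± 0.13 (SE), while CD14 and CD68 changed by 0.47 ± 0.08 and 0.55 ± 0.10. Of 9 fibroblast markers 3 were listed (COL1A1, COL3A1 and ACTA2), with sums of 5927 to 9625 in PHLac-low and 2725 to 4695 in PHLac-high, and none of 5 endothelial markers was in the table. None of these listed markers was at 0 in a library, and their part in the results was not tested. In sorted bulk samples, fewer cells of a state and less RNA per cell cannot be told apart.

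Ligands were divided: of 11, 7 were higher and 4 lower in PHLac-high (median change 0.26, against 0.25 for all listed genes). IL16, a chemoattractant cytokine cut from a larger precursor, lies at chr15:81159575-81314058 on the plus strand (GRCh38, GENCODE 29) and had the largest change of the 51. Its normalised counts were 11.1, 9.85, 12 and 10.3 in PHLac-low (repeats 1 to 4 in order, here and for the genes that follow), and 60.8, 45.6, 87.1 and 21.2 in PHLac-high. The groups did not overlap (36.7% of listed genes did not), the PHLac-high library of repeat 4 being the lowest of its group. The change was 2.05 ± 0.35 (SE, limma adjusted p = 0.00116). These values are 8 to 25 steps of the scaled signal per PHLac-low library, each step taken as 1 read, and 36.0% of the IL16 exon bases also lie in STARD5 exons on the opposite strand. Whether counting used strand is not stated, and STARD5 rose from 62.6 ± 12.5 to 106 ± 13.6 (SD, n = 4). Exons of 21 of the 51 genes share bases with another gene. Opposite-strand shares include IRF1 (22.0% in C5orf56), IRF2BPL (14.8% in AC007686.3) and TRAF4 (10.7% in AC010761.4).

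The chemokines CXCL1, CXCL3 and CXCL5 attract neutrophils through CXCR2 and lie together on chromosome 4, CXCL5 and CXCL3 being 37.8 kb apart and CXCL1 124 kb from CXCL5. All 3 rose with the authors' scaling, while CXCL1 came to 0.01 after upper-quartile scaling and to -0.10 after correction for GC content and length, neither past the threshold. CXCL3 had normalised counts of 186, 224, 313 and 149 in PHLac-low and 407, 451, 684 and 241 in PHLac-high. It was higher in every repeat, although the PHLac-high library of repeat 4 lay within the PHLac-low range. The change of CXCL3 was 0.99 ± 0.11 and that of CXCL5 0.74 ± 0.11, from 948 ± 253 to 1609 ± 588 (SD, n = 4). CXCL1 changed less, by 0.23 ± 0.06 (SE, limma adjusted p = 0.00783), from 2255 ± 425 to 2653 ± 533. The rise of CXCL3 exceeded that of CXCL1 in 4 of 4 repeats by 0.75 ± 0.14 (SE), and that of CXCL5 did so by 0.51 ± 0.20. An exact sign-flip test (two-sided) gave p = 0.125 for both, the smallest that 4 pairs allow, also after adjustment over the 5 gene pairs compared in this way. All 3 chemokines were listed for changes in the same libraries, so the test describes them and adds no support. CXCL1 and CXCL3 share 5.73% and 5.26% of their 50-base stretches with CXCL2, so some reads may be uncertain.

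CCL22, a chemokine for CCR4-bearing T cells, had 46.3, 197, 183 and 59.6 normalised counts in PHLac-low and 44.4, 104, 120 and 11.9 in PHLac-high. The groups overlapped, and repeats 1 and 4 were low in both fractions. The change of -0.95 ± 0.32 (SE, limma adjusted p = 0.0173) fell to -0.52 without repeat 4, and without repeat 2 it was not past the threshold (adjusted p = 0.0608).

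TNF superfamily ligands also went both ways. TNFSF10 encodes TRAIL, which triggers apoptosis through its death receptors, and is an interferon-induced gene. It had 1862, 1235, 1857 and 799 normalised counts in PHLac-low and 855, 871, 1106 and 323 in PHLac-high. It fell in every repeat, by 1.12, 0.50, 0.75 and 1.3, although the PHLac-low library of repeat 4 lay within the PHLac-high range. The change was -0.92 ± 0.13 (SE, limma adjusted p = 0.000462). TNFSF18, the ligand of the T-cell receptor GITR, had 1828, 2288, 3212 and 1611 in PHLac-low and 1426, 1564, 2566 and 654 in PHLac-high. Its change of -0.63 ± 0.15 was -0.41 without repeat 4. TNFSF4, the ligand of the T-cell receptor OX40, lies 133 kb from TNFSF18 on chromosome 1 and went the other way, from 3450 ± 660 to 4277 ± 510 (SD, n = 4), a change of 0.32 ± 0.07. The difference between these neighbours was 0.95 ± 0.18 (SE) in the same direction in 4 of 4 repeats (exact sign-flip p = 0.125, the smallest possible). TNFSF4 was higher and TNFSF18 lower in every repeat, so this direction was already fixed and the test adds no support. After upper-quartile scaling TNFSF4 changed by 0.10 and did not pass. TNFSF9, another co-stimulatory ligand for T cells, rose by 0.61 ± 0.14, from 349 ± 40.5 to 539 ± 113, and its groups did not overlap.

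LIF, a cytokine of the interleukin-6 family that signals through gp130, had the highest mean count of the ligands. Its normalised counts were 7465, 10023, 10906 and 8110 in PHLac-low and 6400, 7914, 9321 and 6642 in PHLac-high. Repeats 2 and 3 were high in both fractions, so the groups overlapped, while the fall within repeats was even (-0.22, -0.34, -0.23 and -0.29). The change was -0.27 ± 0.05 (SE, limma adjusted p = 0.00187). CSF1, the macrophage growth factor, changed by 0.26 ± 0.08 and was not past the threshold without repeat 1 or repeat 2 (adjusted p = 0.0518 and 0.0504). Per kilobase of transcript, ligand levels in PHLac-low ran from 2299 ± 405 normalised counts for LIF and 2056 ± 388 for CXCL1 to 1.12 ± 0.10 for IL16 (SD, n = 4).

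Of 13 receptors, 9 were higher (69.2%, against 58.7% of listed genes) and 4 lower in PHLac-high, a split near that of the table. Their median change was 0.66, against 0.25 for all listed genes. Among receptors with a mean of at least 100 normalised counts, which leaves out CXCR4, CSF1R and IL18R1, the median was 0.27. For all listed genes with such a mean it was 0.25. TNFRSF10D encodes a decoy receptor for TRAIL with a truncated death domain. It had 3833, 4446, 4074 and 1797 normalised counts in PHLac-low and 7760, 9225, 8385 and 5640 in PHLac-high. All PHLac-high libraries lay above all PHLac-low libraries, and repeat 4 was the lowest in both fractions. The change was 1.19 ± 0.10 (SE) with the smallest limma adjusted p of the 51, 8.09e-05.

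TNFRSF10A and TNFRSF10B encode the death receptors for TRAIL and lie 121 kb apart on chromosome 8, with TNFRSF10D between them. TNFRSF10B, the receptor with the highest mean count, had 5816, 7180, 10075 and 5196 in PHLac-low and 7640, 8139, 12974 and 5843 in PHLac-high. Repeat 3 was highest in both fractions and the groups overlapped, with a rise in every repeat. The change was 0.28 ± 0.06, and that of TNFRSF10A was 0.27 ± 0.08. TNFRSF10D rose more than TNFRSF10B by 0.91 ± 0.20 and more than TNFRSF10A by 0.92 ± 0.10, in 4 of 4 repeats each (exact sign-flip p = 0.125, the smallest possible). These genes were listed for changes in the same libraries, so the test describes them and adds no support. After upper-quartile scaling TNFRSF10A and TNFRSF10B did not pass, at 0.04 and 0.05, and TNFRSF10A was not past the threshold without repeat 1 (adjusted p = 0.0511).

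Other TNF receptors differed in direction. TNFRSF25, a death-domain receptor, had 683, 811, 622 and 441 normalised counts in PHLac-low and 428, 525, 400 and 217 in PHLac-high. Its fall was seen in each repeat, and overlap between groups came from the PHLac-low library of repeat 4. The change was -0.74 ± 0.10 (SE, limma adjusted p = 0.000395). Its exons share 2.43% of their bases with PLEKHG5 on the same strand, which changed by -0.60. TNFRSF12A, the receptor for TWEAK, rose by 0.66 ± 0.08, from 2467 ± 657 to 3830 ± 650. TNFRSF9, the receptor for the TNFSF9 ligand, rose by 0.76 ± 0.21, and by 0.50 without repeat 1.

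Among receptors of other families, CXCR4, the CXCL12 receptor, had 15.4, 3.69, 9.11 and 15.4 normalised counts in PHLac-low and 29.2, 24.3, 27.4 and 33.1 in PHLac-high. The groups did not overlap, at 3 to 19 reads per PHLac-low and 23 to 25 reads per PHLac-high library. The change was 1.46 ± 0.37 (SE, limma adjusted p = 0.00547). CSF1R, the receptor for CSF1 and a leukocyte marker, had 17.2, 44.3, 28.8 and 5.14 in PHLac-low and 46.8, 106, 122 and 9.27 in PHLac-high. Its groups overlapped because repeat 4 was lowest in both fractions, with 5 and 7 reads. Its change was 1.36 ± 0.28 (adjusted p = 0.00272).

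IL1R1, the signalling receptor for interleukin-1, rose from 3204 ± 747 to 5513 ± 546 (SD, n = 4), by 0.80 ± 0.14, and its groups did not overlap. Its changes in repeats 1 to 4 were 1.16, 1.06, 0.82 and 0.17. IL18R1, the ligand-binding chain of the interleukin-18 receptor, lies 132 kb from IL1R1 on chromosome 2. It had 27.4, 84.9, 96.4 and 54.4 in PHLac-low and 113, 121, 191 and 53.0 in PHLac-high. It was higher in repeats 1 to 3 only, the fractions of repeat 4 being nearly equal (-0.04). The change of 0.86 ± 0.30 (limma adjusted p = 0.0207) was 0.48 without repeat 1 (adjusted p = 0.0853) and 0.82 without repeat 3 (adjusted p = 0.0667), neither past the threshold. IL17RC and IL17RE, interleukin-17 receptor chains 0.671 kb apart on chromosome 3, changed by -0.27 ± 0.07 and -0.37 ± 0.11. After correction for GC content and length IL17RC came to 0.0051 and IL17RE to -0.12, and neither passed. OSMR, which pairs with gp130 to bind oncostatin M, changed by -0.24 ± 0.08. Per kilobase, TNFRSF12A was the most abundant receptor in PHLac-high at 3380 ± 573 normalised counts and CXCR4 the least at 15.0 ± 1.94.

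Where a ligand and its receptor were both listed, the TNFSF9 and TNFRSF9 transcripts were both higher in PHLac-high, as were CSF1 and CSF1R. The TNFSF10 transcript was lower while those of TNFRSF10A, TNFRSF10B and TNFRSF10D were higher. CSF1, TNFRSF10A and TNFRSF10B came to 0.04, 0.04 and 0.05 after upper-quartile scaling and did not pass, while TNFRSF10D passed (0.97). The receptor for IL-18 was higher by IL18R1 and the secreted antagonist IL18BP lower, as given with the inhibitors. IL18R1 did not pass after upper-quartile scaling (0.64, limma adjusted p = 0.0789).

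**Figure D2:**
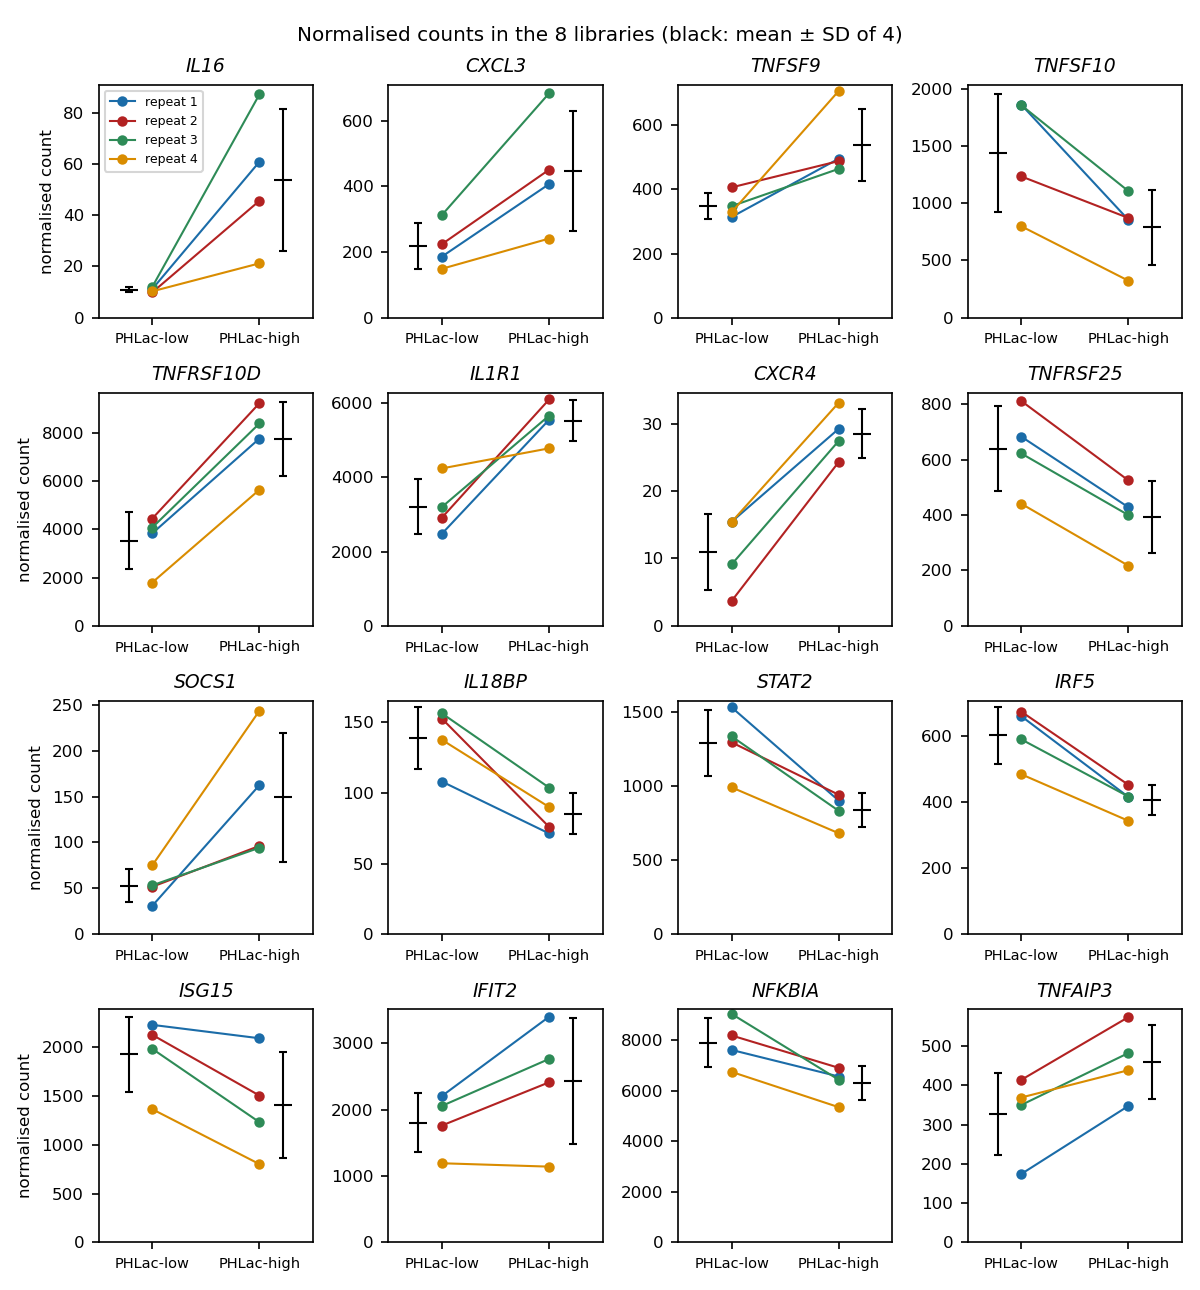
Normalised counts (y axis, from 0) of 16 genes in the PHLac-low and PHLac-high libraries (x axis), lines joining the fractions of each repeat and black bars giving mean ± SD of 4. TNFRSF10D, IL1R1, IL16 and SOCS1 separate the fractions fully, while ISG15, TNFSF10 and IFIT2 differ between repeats by as much as between fractions.

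Signalling genes were mostly lower: of 11, 8 fell (72.7%, against 41.2% of all listed genes) and 3 rose (median change -0.33, against 0.25). STAT2, the STAT of the type I interferon complex ISGF3, had 1530, 1294, 1334 and 990 normalised counts in PHLac-low and 900, 940, 831 and 681 in PHLac-high. All PHLac-high libraries lay below all PHLac-low libraries. The change was -0.61 ± 0.08 (SE, limma adjusted p = 0.00033). IRF5, a transcription factor of Toll-like receptor and interferon responses, likewise did not overlap and fell by 0.56, from 601 ± 86.7 to 407 ± 45.7 (SD, n = 4). IRF1, a transcription factor that interferon gamma induces, rose by 0.40 ± 0.08, and by 0.17 after upper-quartile scaling (adjusted p = 0.0568).

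JAK3, the kinase of common-gamma-chain receptors, had 180, 282, 166 and 85.2 normalised counts in PHLac-low and 132, 188, 150 and 39.7 in PHLac-high. It fell within each repeat while its levels differed more between repeats than between fractions, and the change was -0.56 ± 0.17 (limma adjusted p = 0.0118), which did not pass after correction for GC content and length (-0.39, adjusted p = 0.0728). JAK2, the kinase of many cytokine receptors including gp130, rose by 0.32 ± 0.10, from 371 ± 15.7 to 464 ± 43.3, without overlap. JAK2 did not pass without repeat 3 (adjusted p = 0.0665) or after upper-quartile scaling (0.09). STAT6, the STAT of interleukin-4 and interleukin-13, changed by -0.24 ± 0.05.

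The NF-kB precursors split, NFKB1 rising by 0.23 ± 0.07 and NFKB2 falling by 0.33, and neither passed after correction for GC content and length (0.10 and -0.08). TRAF4, the signalling gene with the highest mean count, had 4919, 5458, 5734 and 3999 in PHLac-low and 3897, 4304, 3864 and 3559 in PHLac-high. The PHLac-low library of repeat 4 alone lay in the PHLac-high range, and the change was -0.35 ± 0.07 (limma adjusted p = 0.0023). TRAF5 changed by -0.28 ± 0.09 and did not pass without repeat 1 or repeat 2 (adjusted p = 0.0594 and 0.0602). TRAF3IP2, the adaptor of interleukin-17 receptors, changed by -0.49 ± 0.12.

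Of 11 genes grouped as inhibitors, among them the nuclear IkB proteins NFKBID and NFKBIZ, 8 rose and 3 fell (median change 0.32). Of all listed genes 58.7% were higher, with a median of 0.25, so the split was near that of the table. Inhibition itself was not measured, and the grouping does not mean that NFKBID and NFKBIZ act only as inhibitors. SOCS1, which blocks JAK kinases and targets them for degradation, had 30.9, 51.7, 53.2 and 75 normalised counts in PHLac-low and 163, 96.2, 94.2 and 244 in PHLac-high. The groups did not overlap, repeats 1 and 4 being highest in PHLac-high. The change was 1.44 ± 0.27 (SE, limma adjusted p = 0.00171). All 4 listed SOCS genes rose with the authors' scaling, SOCS6 by 0.32 ± 0.07, SOCS4 by 0.27 ± 0.07 and SOCS7 by 0.25 ± 0.06, whereas after upper-quartile scaling these 3 were at 0.09, 0.04 and 0.02 and did not pass. Of these, SOCS6 alone did not overlap between groups.

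NFKBIA encodes IkB alpha, the inhibitor that NF-kB itself induces, and had the highest mean count of the inhibitors. It had 7622, 8195, 9049 and 6753 in PHLac-low and 6570, 6913, 6441 and 5355 in PHLac-high. It fell in each repeat, with slight overlap, by 0.32 overall (limma adjusted p = 0.0019). NFKBID, a nuclear IkB protein, had 201, 384, 332 and 314 in PHLac-low and 201, 203, 183 and 238 in PHLac-high. Its fractions were equal in repeat 1, and the change of -0.54 ± 0.16 was not past the threshold without repeat 2 or repeat 3 (adjusted p = 0.0644 and 0.0539). Another nuclear IkB protein, NFKBIZ, rose by 0.45 ± 0.13 (0.32 without repeat 2, adjusted p = 0.0506), NFKBIE by 0.36 ± 0.09 and NFKBIB by 0.35 ± 0.09. TNFAIP3, the ubiquitin-editing enzyme that ends NF-kB signalling, rose by 0.54 ± 0.13, from 326 ± 105 to 460 ± 94.0. After upper-quartile scaling none of these 4 passed (limma adjusted p = 0.194 for NFKBIZ, 0.265 for NFKBIE, 0.224 for NFKBIB and 0.0503 for TNFAIP3). IL18BP, a secreted protein that binds interleukin-18, had 108, 153, 156 and 138 in PHLac-low and 71.3, 76.0, 104 and 90.0 in PHLac-high. No library overlapped, and the change was -0.70 ± 0.15 (adjusted p = 0.00314). Of the IL18BP exon bases 15.6% also lie in exons of NUMA1 on the opposite strand, a gene that is not in the table.

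Interferon-induced effectors went both ways. ISG15, a ubiquitin-like modifier, changed by -0.51 ± 0.11, from 1923 ± 387 to 1405 ± 539 (SD, n = 4), with -0.09 in repeat 1 and -0.77 in repeat 4. IFI16, a sensor of DNA, had 271, 545, 690 and 348 normalised counts in PHLac-low and 232, 335, 494 and 185 in PHLac-high. It was lower in each repeat, while levels ran from lowest in repeats 1 and 4 to highest in repeat 3 in PHLac-low, and the change was -0.58 ± 0.12 (limma adjusted p = 0.00311). IFIT2, which restrains translation of viral RNA, had 2207, 1763, 2058 and 1193 in PHLac-low and 3402, 2414, 2766 and 1143 in PHLac-high. It was higher in repeats 1 to 3 and not in repeat 4 (-0.06). Its change of 0.36 ± 0.11 became 0.14 after upper-quartile scaling (adjusted p = 0.293) and 0.12 after correction for GC content and length (adjusted p = 0.284). AL353751.1, which overlaps IFIT2 on the same strand, holds 8.40% of the IFIT2 50-base stretches, so some reads may be uncertain.

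The symbol rule also took 2 genes whose names refer to interferon and which were set apart for that reason. IFITM10 had 484, 615, 739 and 420 normalised counts in PHLac-low and 1154, 1443, 1388 and 548 in PHLac-high. The PHLac-high library of repeat 4 lay within the PHLac-low range, and the change was 0.94 ± 0.14 (limma adjusted p = 0.000637). Of its 50-base stretches 27.8% also occur in the overlapping transcript AC068580.4. IRF2BPL, the most abundant of the 51 by count, had 10999, 14508, 13660 and 7966 in PHLac-low and 9276, 9792, 8444 and 5640 in PHLac-high. It fell in each repeat with overlap, by 0.50 overall (adjusted p = 0.000609).

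**Figure D3:**
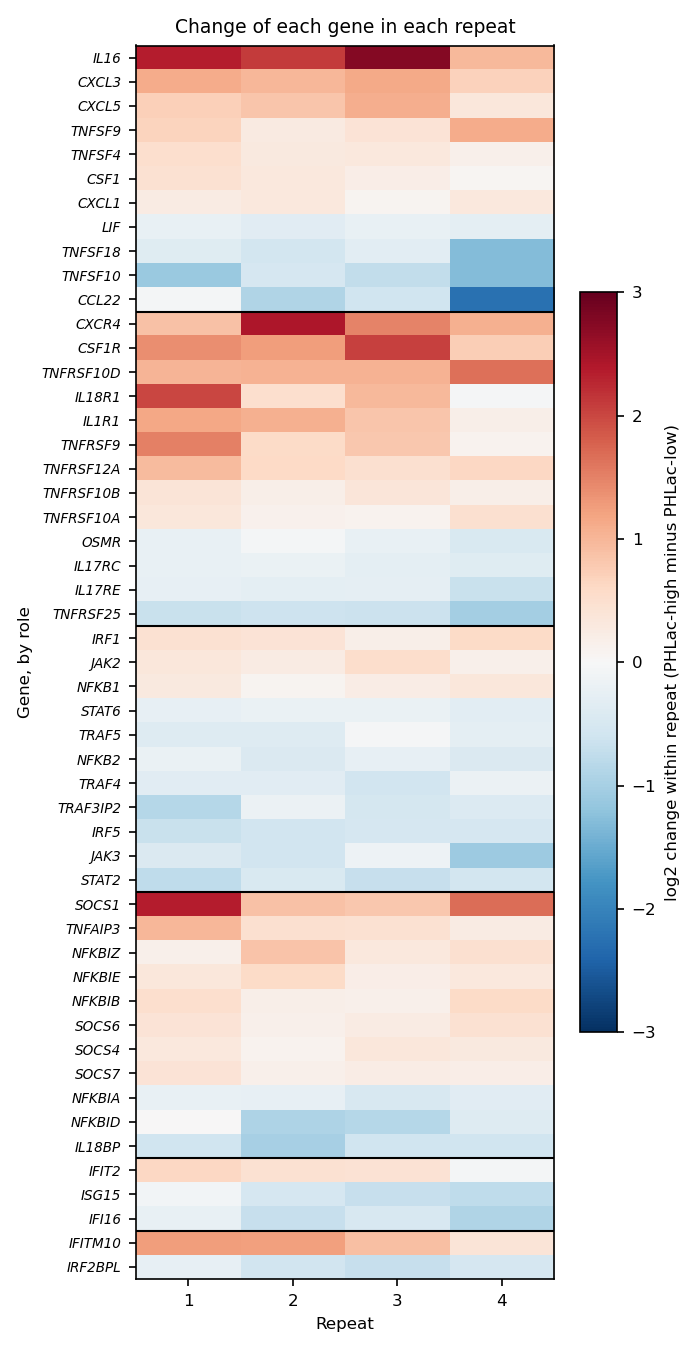
Log2 change of each gene (y axis, ordered by role) within each of the 4 repeats (x axis), red for higher and blue for lower in PHLac-high. Repeat 4 has weaker changes than the other repeats for IL16, IL1R1 and CSF1R and stronger ones for CCL22, TNFSF18 and TNFRSF10D.

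Repeats differed in which genes moved most. Repeat 4 had the smallest of the 4 changes for 16 of the 51 genes (31.4%, against 29.4% of listed genes) and the largest for 20 (39.2%, against 37.8%). Fractions of the same repeat deviated together from their group means, with correlations across the 51 genes of 0.59, 0.75, 0.81 and 0.81 in repeats 1 to 4. These describe genes measured in the same libraries.

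Genes of the same routes outside the symbol rule were read from 3 lists. Of 44 NF-kB and TNF pathway genes 12 were listed, and 11 were higher and 1 lower in PHLac-high (median change 0.44). Of all listed genes 58.7% were higher, with a median change of 0.25. Higher genes included RIPK1, the kinase at the TNF receptor (0.71 ± 0.07), BIRC3, an inhibitor of apoptosis that NF-kB induces (0.79 ± 0.16), IRAK2, a kinase of interleukin-1 signalling (0.69 ± 0.15), and REL, an NF-kB subunit (0.50 ± 0.10). RNF31, the catalytic part of the linear ubiquitin ligase, was lower (-0.30 ± 0.07). After upper-quartile scaling 6 of the 11 passed as higher.

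Of 49 interferon-response symbols 16 were listed, and 14 were lower and 2 higher (median change -0.33). Of all listed genes 41.2% were lower, with a median of 0.25. The 49 symbols hold both the old and the new name of some genes, for example MB21D1 and CGAS. Of the 14 lower genes 12 fell in all 4 repeats. DDX58 changed by 0.02 in repeat 1 and PML by 0.03 in repeat 4. UBA7, the activating enzyme for ISG15, had a change of -1.05 ± 0.20, DHX58, a sensor of viral RNA, -0.80 ± 0.15, HERC5, the ligase for ISG15, -0.72 ± 0.16, and XAF1, a pro-apoptotic gene, -1.35 ± 0.40. XAF1 was at 0 in the PHLac-high library of repeat 4, where its change was -2.84, against -0.97 to -0.63 in the other repeats. HLA-B and HLA-C, which present antigen, changed by -0.23 ± 0.08 and -0.22 ± 0.07, most in repeat 4 (-0.53 and -0.44) and least in repeat 1 for HLA-C (-0.11) and in repeats 1 and 2 for HLA-B (-0.08 and -0.09). MB21D1, the DNA sensor cGAS, and ZC3HAV1, an antiviral zinc finger protein, were higher, by 0.51 ± 0.08 and 0.27 ± 0.06, but only 1 of these 2 passed after upper-quartile scaling and 0 after correction for GC content and length (limma). Without the replicate block none of the 14 lower genes passed in limma, and levels in repeat 4 were low in both fractions for UBA7 and DHX58.

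Of 32 JAK-STAT genes 14 were listed, 10 higher and 4 lower (median change 0.31), near the split of all listed genes (58.7% higher, median 0.25). Among them MYC, MCL1 and BCL6, genes that STAT proteins can induce, changed by 0.59 ± 0.06, 0.58 ± 0.06 and 0.59 ± 0.08. PIM1, another such gene, changed by -0.49 ± 0.08 and EPOR, the erythropoietin receptor, by -0.83 ± 0.10. TYK2, the kinase of interferon and interleukin-6 family receptors, stood in both this and the interferon list and changed by -0.21 ± 0.06. After upper-quartile scaling 5 of the 10 higher genes passed.

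**Figure D4:**
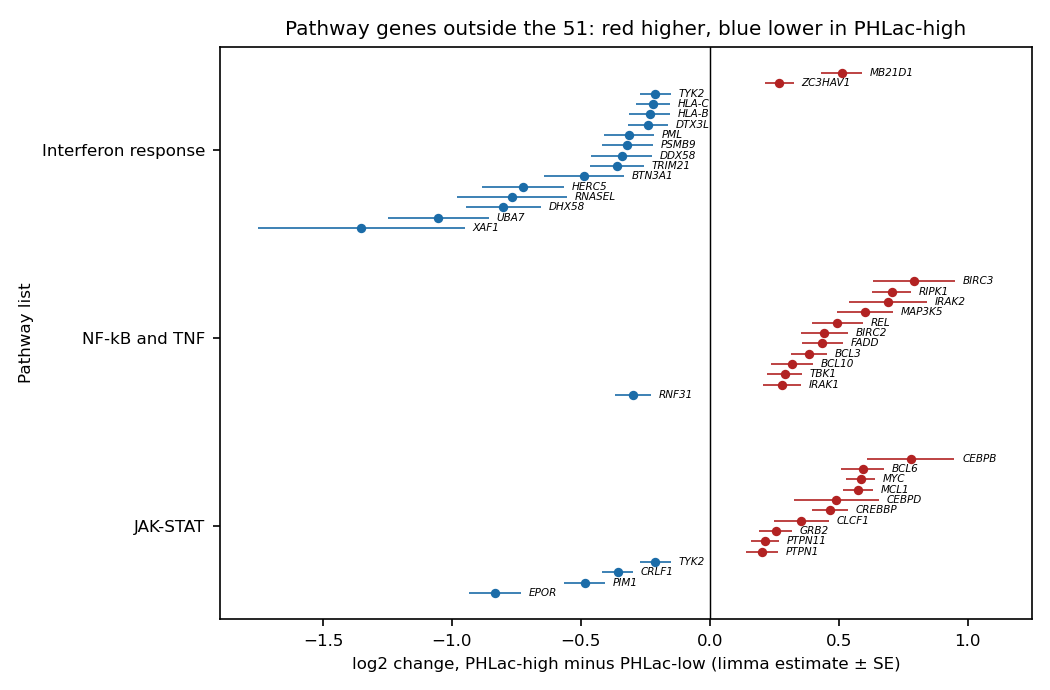
Log2 change between PHLac-high and PHLac-low (x axis, limma estimate ± SE) of listed genes from the 3 pathway lists (y axis), red for higher and blue for lower. The NF-kB and TNF genes lie right of 0 apart from RNF31, and the interferon-response genes left of 0 apart from MB21D1 and ZC3HAV1.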

How the data were processed

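The authors deposited 1 table of 3666 genes with a signal per library, a log2 fold change and an adjusted p-value. STAR, SAMtools, Subread, DESeq2 and hg38 are named in the submitters' processing notes. Settings are not given in the sources used here. All deposited values of the signal were whole multiples of 1 step per library (within 0.01), taken as 1 read. In 4 libraries only 42 to 98 values lay near the smallest step, too few to accept recovered reads there, so read numbers are estimates. The highest deposited adjusted p-value was 0.05, so the table holds only genes past that threshold. In the authors' deposited table the log2 change of the 51 genes ran from -0.91 to 2.22. No per-sample column was left without a sample (0).

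limma 3.58.1 (R 4.3.3) was run on log2(value + 1) over all listed genes with the repeat as a block, a mean-variance trend and Benjamini-Hochberg adjustment. It was also run on simulated data in which few genes changed, unlike in this table, so that run says nothing about these calls. The series text states that repeats are paired, and deviations of same-numbered libraries correlated at 0.53 to 0.76 across listed genes. Alternatives were no block, leaving out each repeat, a pseudocount of 0.1, upper-quartile scaling, a mean of at least 100, correction for transcript GC content and length (lowess span 0.3, GENCODE 29, 3520 genes matched) and no trend. Alternatives for the pathway lists were chosen after seeing the data. Count tests planned with edgeR and DESeq2 were not run. The genes, roles and lists were chosen with earlier results of these data known. Every gene is named. Values in each library are given for the 8 largest increases and 8 largest decreases, the highest mean count of each role, and genes without the same direction in all repeats.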

Additional observations from a re-analysis of the deposited data

Results flagged for a closer look

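For each of the 51 genes, the 4 values of each fraction and the 4 changes within repeats were searched for a value whose gap to its nearest neighbour relative to the whole range exceeded Dixon's critical value for 4 samples. Of 153 such groups 9 were picked out, and chance gives about 1 in 20, or 7.65. The far value belonged to repeat 4 in 6 of them. The PHLac-high library of repeat 4 was highest for TNFSF9 (gap 0.869 of the range) and NFKBIB (0.966), and the PHLac-low library of repeat 4 was lowest for TRAF5 (0.861). The change within repeat 4 was lowest for TNFRSF25 (0.885) and IL17RE (0.895) and highest for TNFRSF10D (0.944). The PHLac-high library of repeat 1 was lowest for IRF1 (0.955) and highest for SOCS6 (0.905). For IL18BP the change within repeat 2 was lowest (0.951).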

How the results depend on the processing

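Of 505 values of the 51 genes under 10 alternatives, 421 kept their direction and side of the threshold, 82 no longer passed and 2 changed sign. The 12 genes that passed under each alternative that tested them were CXCL3, CXCR4, IFITM10, IL16, IL18BP, IL1R1, IRF5, SOCS1, STAT2, TNFRSF10D, TNFRSF12A and TNFSF9. Without the replicate block 1135 listed genes passed (743 higher, 392 lower), and 13 of the 51 (10 higher, 3 lower). Of the pathway lists, 4 higher and 1 lower JAK-STAT genes, 5 higher NF-kB and TNF genes, and 1 higher and 0 lower interferon genes then passed in limma. Fits leaving out 1 repeat each gave 46 to 51 of the 51 genes (90.2% to 100%, against 94.6% to 98.9% of listed genes). Upper-quartile scaling gave 2360 listed genes (850 higher), 12 higher members, 5 higher JAK-STAT, 6 higher NF-kB and TNF and 1 higher interferon gene. It moved the median change of ligands to 0.0357, of signalling genes to -0.555, of inhibitors to 0.0921 and of the genes matched by name only to -0.0032. Correction for GC content and length, with the replicate block, gave 2207 listed genes (1151 higher), 17 higher members, 2 lower JAK-STAT and 0 higher interferon genes, and turned CXCL1 to -0.0988 and IL17RC to 0.0051. A mean of at least 100 left out IL16, CCL22, CXCR4, CSF1R and IL18R1, which moved the median of receptors to 0.272. Upper-quartile scaling moved the log2 change of each of the 51 genes down, so increases shrank and decreases grew. What set these and the other differences was not tested. Depth limits IL16, CXCR4 and CSF1R most, at 3 to 60 reads per PHLac-low library.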
